A study of Mus musculus with 16 samples.

Results

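The miR-133 family was followed in mouse C2C12 cells through 3 of its listed arms: miR-133a-3p, miR-133b-3p and miR-133b-5p. Members were found by name: a row counted if its miRNA name, with or without a hairpin copy number, was one of these 3. The 3 members are among 2510 names listed in 16 small RNA tables, or 2274 after joining. Names were joined to a listed mature name by dropping a hairpin copy number or arm ending, or by adding the letter a. The 3 members took 899 rows, 419 distinct sequences and 12275 reads. C2C12 is an established mouse myoblast line. Control cells were wild type, and tKO cells were clones deleted for miR-1a-1, miR-1a-2 and miR-206, so both muscle miR-1/206 types were removed while the miR-133 hairpins were not the named targets. Cells of each genotype were taken as myoblasts in growth medium near confluence (GM) and as myotubes after 3 days in differentiation medium (DM3). Each of the 4 groups held 4 libraries: 2 control populations or 2 tKO clones, each with 2 biological replicates. The 4 libraries of a group therefore come from 2 lines, and p-values measure the spread among these libraries, not among independent lines. The protocol text describes the cells as a PAX7 negative C2C12 population. Total RNA was made into libraries from inserts picked by gel size.

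As background, miR-133 is a muscle-enriched family whose genes sit beside those of miR-1 and miR-206 and whose pairs are made from shared primary transcripts. A hairpin is cut into a 5p and a 3p strand, and for miR-133 the 3p strand is the one mainly loaded into Argonaute, where bases 2 to 8, the seed, direct pairing with mRNAs. In muscle, miR-1 and miR-206 are known for promoting differentiation, and miR-133 for acting on serum response factor and on proliferation of myoblasts. In RefSeq annotation of GRCm38.p6, Mir206 lies at chr1:20679010-20679082 and Mir133b at chr1:20682769-20682887, with 3686 bases between them. Mir1a-1 lies at chr2:180389048-180389124 and Mir133a-2 at chr2:180398379-180398482, both inside the host gene Mir1a-1hg at chr2:180385604-180401802. Each of these miR-133 genes thus neighbours a hairpin that was deleted in tKO cells.

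The mature b sequences, from RefSeq GRCm38.p6, are shown because the separation of a from b reads turns on their last bases. Capitals mark the seed. The miR-133a sequence is named only. The 3p strand is encoded on the plus strand at chr1:20682834-20682855 and the 5p strand at chr1:20682797-20682818, both within Mir133b.
miR-133b-3p: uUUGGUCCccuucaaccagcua
miR-133b-5p: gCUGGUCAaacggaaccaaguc

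The next sequences are the 3 commonest shared reads and the 4 commonest b-only reads that start at the first or the next base of the 3p strand. They show why a listed name does not always say which hairpin made a read. Reads that only an a hairpin holds are counted further on and not printed. The first 3 are held by both the a and the b hairpins. The other 4 end past the run that the hairpins share, and capitals mark the bases that only the b hairpin holds after it.
shared isoform 1: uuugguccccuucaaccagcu
shared isoform 2: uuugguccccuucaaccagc
shared isoform 3: uuugguccccuucaacc
b isoform 1: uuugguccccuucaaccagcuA
b isoform 2: uuugguccccuucaaccagcuAC
b isoform 3: uugguccccuucaaccagcuA
b isoform 4: uugguccccuucaaccagcuAC
Shared isoform 1 had 4617 reads and was listed under miR-133a-2-3p, although the b hairpin holds the same letters. By group it had 63 reads in control GM, 0 in tKO GM, 3723 in control DM3 and 831 in tKO DM3. Shared isoforms 2 and 3 had 481 and 341 reads. b isoform 1, the annotated miR-133b-3p, had 981 reads, and b isoform 2 had 153. b isoforms 3 and 4 start 1 base later, which moves the seed to UGGUCCC, and had 56 and 20 reads. b isoforms 2, 3 and 4 were also listed under miR-133a-2-3p.

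Library totals ran from 112792 to 6543570 reads, so equal numbers of reads carry different precision: 3 reads, the limit that a count of 0 allows, are worth 0.458 to 26.6 CPM, reads per 1000000 listed reads of a library. tKO DM3 clone 1 replicate 1 stood apart, with 112792 reads, 18.9% of them under 18 nt and 44.9% with a tail. In that library 69.6% of reads had a listed sequence in an annotated miRNA hairpin, and 43 reads were of the 3p names. In the other DM3 libraries, reads under 18 nt made up 4.76% to 12.8% in control and 2.96% to 4.80% in tKO cells. Control DM3 population 1 replicate 2 had the 12.8%, with 80.8% of reads in a hairpin by listed sequence. Levels were also computed over sequences of 18 to 25 nt. The part of short reads in the 3′ ends was not tested. The deletions showed in the labelled libraries: miR-206-3p was at 0.96 to 70.9 CPM in tKO DM3 against 19951 to 57442 CPM in control DM3, and at 0.808 to 15.5 CPM in tKO GM against 837 to 1466 CPM in control GM. Of 8 miRNAs that mark other cell types, the summed level ran from 33.2 to 59.0 CPM in control GM, 22.2 to 112 CPM in tKO GM, 8.07 to 25.4 CPM in control DM3 and 6.79 to 44.0 CPM in tKO DM3. In both GM groups 1 of the 8 was at 0 and in both DM3 groups 2 were. The neuronal miR-124-3p was at 0 in all 16 libraries and the erythroid miR-451a at 0 in all DM3 libraries. The hepatic miR-122-5p was at 20.4 ± 11.1 (control) and 37.9 ± 26.9 CPM (tKO) before differentiation, and at 2.02 ± 1.40 and 4.13 ± 3.78 CPM in DM3 (SD, n = 4 each). edgeR called it lower in DM3 in both genotypes (log2 -3.46, adjusted p = 0.000823; log2 -2.89, adjusted p = 0.00206), the direction opposite to the miR-133 members. The endothelial miR-126a-3p was at 20.5 ± 5.11, 8.18 ± 5.36, 8.90 ± 4.92 and 11.9 ± 7.87 CPM in control GM, tKO GM, control DM3 and tKO DM3, and edgeR called it in no comparison. The part of these markers in the results was not tested.

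The 3p members were among the most strongly induced miRNAs of differentiation in both genotypes. In DM3 all 3 members, with hairpin copies joined, were lower in tKO than in control libraries without overlap, beside 2.23% of all 807 names. These first values follow the listed names after hairpin copies were joined. Of the joined miR-133a-3p reads, 8883 were listed as miR-133a-2-3p and 135 as miR-133a-3p. With copies kept apart, the edgeR tKO minus control difference of the name miR-133a-3p turned to 1.55 in GM (adjusted p = 0.916). In DM3 it turned to 1.70 (edgeR adjusted p = 0.402). Library values are given in the order line 1 replicate 1, line 1 replicate 2, line 2 replicate 1, line 2 replicate 2, where a line is a control population or a tKO clone.

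Control libraries held miR-133a-3p, a member made in heart and skeletal muscle, at 7.81, 10.1, 2.63 and 14.9 CPM before differentiation (GM) and at 2190, 1130, 1424 and 1601 CPM after it (DM3). In tKO cells it was at 6.46, 3.57, 2.22 and 3.00 CPM in GM and at 316, 65.8, 762 and 236 CPM in DM3. All DM3 libraries lay above all GM libraries, and all tKO DM3 libraries lay below all control DM3 libraries, while the genotypes overlapped in GM. For miR-133b-3p, made from the miR-206 locus, the control values were 0, 3.87, 2.63 and 5.25 CPM in GM, then 738, 347, 433 and 458 CPM in DM3. In tKO cells it was at 0, 0.510, 1.11 and 1.17 CPM in GM and at 65.0, 24.7, 199.9 and 83.9 CPM in DM3. The pattern of overlap was that of miR-133a-3p, with tKO clone 2 replicate 1 the highest and clone 1 replicate 2 the lowest tKO DM3 library for both. miR-133b-5p, the other strand of the same b hairpin, stood at 9.76, 1.99, 3.16 and 1.38 CPM in GM controls, then at 76.6, 43.2, 50.2 and 59.8 CPM in DM3 controls. In tKO cells it was at 1.62, 1.53, 3.89 and 2.17 CPM in GM and at 35.5, 22.1, 27.1 and 25.5 CPM in DM3. Its tKO DM3 libraries were again all below the control ones, by a smaller margin. The 35.5 CPM of tKO clone 1 replicate 1 rests on 4 reads, all under 18 nt. The arm miR-133a-5p, not a member, was at 0 to 8.07 CPM in control DM3 and 3.74 to 24.4 CPM in tKO DM3, with overlap.

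**Figure D1:**
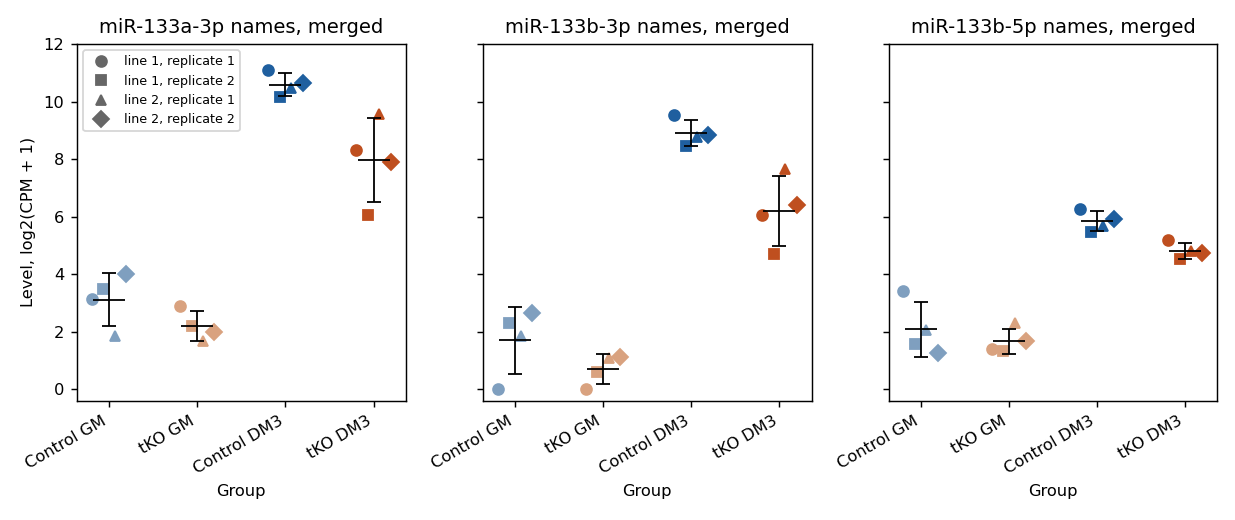
Level of each member in every library, as log2(CPM + 1) on the vertical axis, by group on the horizontal axis, with each point 1 library. DM3 libraries sit above GM libraries for all 3 members in both genotypes, and tKO DM3 libraries sit below control DM3 libraries.

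On the log2(CPM + 1) scale, the tKO minus control difference in DM3 was -2.63 for miR-133a-3p, -2.70 for miR-133b-3p, -1.02 for miR-133b-5p and -2.65 for the sum of the 3p members. Each had p = 0.0286 in a two-sided exact permutation test, the smallest that 4 against 4 libraries can give, and an adjusted value of 0.0381 over 16 such tests. Fitted with edgeR's quasi-likelihood model over 807 names, the 3 member log2 differences came to -2.13 (SE 0.58), -2.29 (SE 0.59) and -1.06 (SE 0.45). The sum, in a second fit where it replaced the 3p names, came to -2.17 (SE 0.55). Each SE is the absolute log2 difference divided by the square root of the F statistic. Adjusted over all names of each fit, the edgeR p-values were 0.098, 0.0709, 0.383 and 0.0699. Neither a member nor the sum passed 0.05 in these fits. The name miR-133a-3p without its hairpin copies went the other way, at 1.70 (edgeR adjusted p = 0.402). In the permutation test, leaving out any 1 control DM3 library raised the adjusted value to 0.0703 for the 3p members and their sum and to 0.0508 for miR-133b-5p. In the background, 0.867% of the names were called in this comparison, and 2.23% were lower in tKO without overlap. Without tKO DM3 clone 1 replicate 1 the edgeR value of the sum was -1.98 with adjusted p = 0.0406, and without tKO DM3 clone 2 replicate 1 it was -2.98 with adjusted p = 0.00718. Within replicate number 2 alone it was -3.07 (edgeR adjusted p = 0.0262), and within number 1 alone -1.58 (edgeR adjusted p = 0.548). In such bulk samples, fewer cells that make a miRNA and less of it per cell cannot be told apart.

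In GM, control libraries held 11.8 ± 6.67 CPM of summed 3p reads and tKO libraries 4.51 ± 1.35 CPM (SD, n = 4 each), and the groups overlapped. Differences were -0.92 for miR-133a-3p (exact permutation p = 0.143), -1.0 for miR-133b-3p (exact permutation p = 0.171) and -0.41 for miR-133b-5p (exact permutation p = 0.6). edgeR gave log2 differences of -1.43, -2.14 and -0.41 and called no member, with adjusted p-values of 0.538, 0.282 and 0.991. With only sequences found in a hairpin, miR-133b-3p had 0 reads in tKO GM and passed in edgeR (fitted log2 -5.76, no bound; adjusted p = 0.0112), and with sequences of 18 to 25 nt it passed at -5.94 (edgeR adjusted p = 0.00899). In this comparison 1.12% of names were called by edgeR and 4.09% were lower in tKO without overlap.

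From GM to DM3, edgeR gave a 127-fold rise of miR-133a-3p in control cells (log2 6.99, SE 0.73, adjusted p = 8.75e-06) and a 101-fold rise of miR-133b-3p (log2 6.66, SE 0.73, adjusted p = 8.75e-06). miR-133b-5p rose 14.8-fold by listed reads (edgeR log2 3.89, SE 0.52, adjusted p = 4.69e-05). In tKO cells the rises were 78.3-fold (log2 6.29), 91.6-fold (log2 6.52) and 9.38-fold (log2 3.23), with edgeR adjusted p-values of 3.18e-05, 3.18e-05 and 0.000357. Across the alternatives the miR-133a-3p rise ran from log2 4.97 to 8.02 in control and from 5.12 to 7.59 in tKO cells. In tKO cells the miR-133b-3p rise is over 10 GM reads, 0 of them with a sequence found in a hairpin, and across the alternatives its fitted log2 value ran from 5.89 to 10.66, so its size is not fixed by these data. By size of rise among the 807 names, the 3p members held ranks 1 and 2 in both genotypes, and miR-133b-5p ranks 39 in control and 29 in tKO cells. Most miR-133b-5p reads in GM were under 18 nt, and with sequences of 18 to 25 nt only its fitted rise was log2 8.48 in control and 8.20 in tKO cells. The latter has no GM reads behind it and is no bound, so the size and rank of this rise depend on which lengths are counted. The background share called was 27.6% in control and 19.7% in tKO cells, and the share higher in DM3 without overlap was 22.4% and 10.8%. The difference between the rises, tKO minus control, was -0.70 for miR-133a-3p (edgeR adjusted p = 0.937), -0.14 for miR-133b-3p (0.993) and -0.66 for miR-133b-5p (0.937). Each of these directions reversed in some alternatives. That of miR-133b-3p reversed in 7 fits that left out 1 library and was kept in 9. No name passed in that interaction: edgeR called 0% of 807, with 37 at an unadjusted p under 0.05, and DESeq2 called 0 with 39 under 0.05. The DM3 comparison between genotypes and the 2 rises share libraries, so their values are not independent of each other.

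Reads were next sorted by sequence instead of by listed name. Each read was taken whole, its listed sequence plus any tail, and searched in the miR-133a and miR-133b hairpins of the GENCODE vM21 annotation. Of the 11752 reads under the 3p names, 5646 (48.0%) were held by both kinds of hairpin and so had no assignable source. Only 1267 (10.8%) were held by the b hairpin alone and 520 (4.42%) by an a hairpin alone. The remaining 4319 (36.8%) were held by neither. The b-only reads include 31 reads of the 3′ flank listed as miR-133b-3p, 26 in control DM3 and 5 in tKO DM3. All 5646 shared reads were listed under miR-133a-2-3p, as were 243 of the b-only reads (19.2%). The listed level of miR-133a-3p is therefore mostly a level of reads that either hairpin could give.

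**Figure D2:**
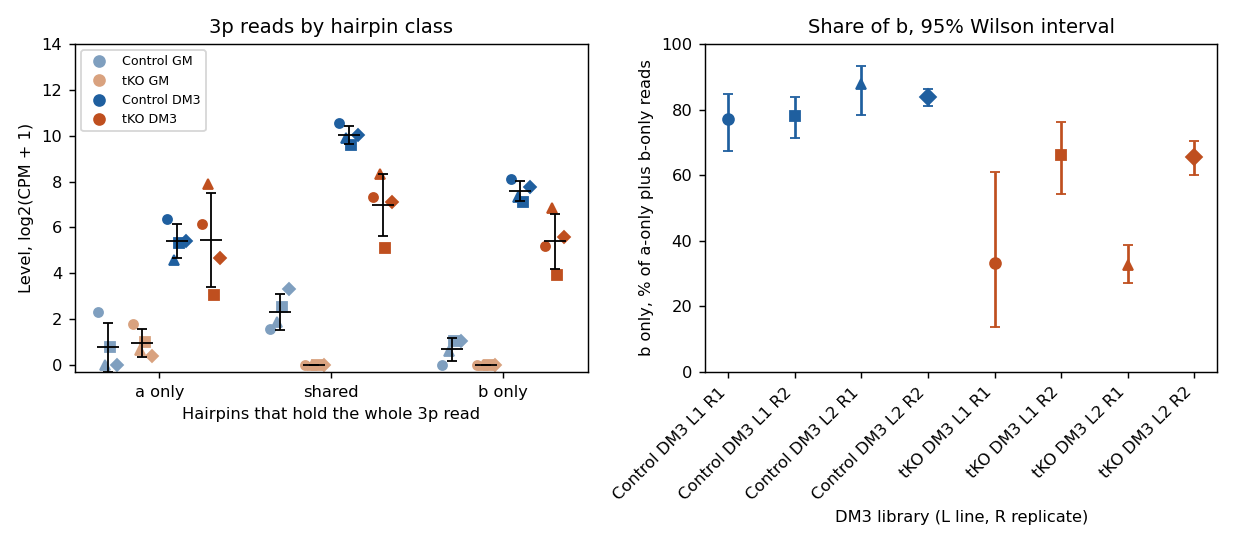
Levels of the a-only, shared and b-only 3p reads in each library as log2(CPM + 1), and the share of b among reads that separate a from b in each DM3 library, in percent with 95% Wilson intervals. Shared and b-only reads are lower in tKO DM3 than in control DM3, a-only reads overlap, and the b share lies at 77.3% to 87.7% in control and 32.7% to 66.2% in tKO libraries.

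The sorted classes differed in how they varied with genotype. In DM3, shared reads were at 1504, 783, 942 and 1035 CPM in control and at 159.6, 33.6, 319 and 138 CPM in tKO libraries. b-only reads were at 274, 139, 161 and 216 CPM in control and at 35.5, 14.4, 114 and 46.7 CPM in tKO libraries. Neither class overlapped between genotypes, with differences of -3.05 and -2.20 on the log2(CPM + 1) scale (exact permutation p = 0.0286 each, adjusted 0.0347 over 17 tests added after the data were seen). a-only reads were at 80.7, 38.9, 22.6 and 41.8 CPM in control and at 70.9, 7.36, 235 and 24.7 CPM in tKO libraries. These ranges overlapped, with both the highest and the lowest library in the tKO group, and the difference was 0.04 (exact permutation p = 0.943). The replicate numbers went opposite ways. Within number 1 the tKO mean was the higher (153 against 51.6 CPM, with overlap), and within number 2 the lower (16.0 against 40.3 CPM, without overlap). Leaving out any 1 control library gave p = 0.0571 for b-only reads, and so did 3 of the 4 for shared reads (exact permutation tests). Leaving out 1 library at a time moved the a-only difference between -0.77, without tKO clone 2 replicate 1, and 0.83, without tKO clone 1 replicate 2. The tKO a-only values rest on 8, 23, 173 and 112 reads.

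The share of b among separating reads, a measure that library depth does not scale, was 77.3%, 78.2%, 87.7% and 83.8% in control DM3. In tKO DM3 it was 33.3%, 66.2%, 32.7% and 65.4%. The tKO libraries all lay below the control libraries, with means of 49.4% ± 18.9 and 81.7% ± 4.90 (SD, n = 4 each) and a difference of -32.3 percentage points (exact permutation p = 0.0286, adjusted 0.0408 over 10 tests). Both tKO clones gave a low share in replicate 1 and a higher one in replicate 2: the difference was -49.5 points within number 1 and -15.2 points within number 2. Leaving out any 1 control library gave exact permutation p = 0.0857. tKO clone 1 replicate 1 gave only 12 separating reads. An added A on the shared 21-base read has the same letters as annotated miR-133b-3p, so the last base alone cannot prove its source. With reads that differ from the other hairpin before their last base only, the b share was 16.3% in tKO and 55.4% in control libraries. These means are over 3 and 4 libraries that had at least 10 such reads, and the 3′ flank reads count there as b. With the annotated mature sequences only, the b share was 81.6% and 97.1%, a gap of -15.5 points, and with reads at the annotated start 65.1% and 88.8%, a gap of -23.7 points, again over 3 and 4 libraries. The groups did not overlap in any of these counts, but the size of the gap depended on the reads used.

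In GM the classes rest on few reads. Shared reads numbered 1, 26, 5 and 58 in the control libraries and 0 in each tKO library, which allows up to 2.42, 1.53, 1.67 and 0.501 CPM there. b-only reads numbered 0, 6, 1 and 7 in control and 0 in each tKO library. All 3p reads found whole in a hairpin came, in GM, to 5.86, 6.53, 3.16 and 9.93 CPM for control and to 2.42, 1.02, 0.555 and 0.334 CPM for tKO libraries. These ranges did not overlap (difference -1.84 on the log2(CPM + 1) scale, exact permutation p = 0.0286, adjusted 0.0347), unlike those of the listed names. The tKO values are 3, 2, 1 and 2 reads, at or under the limit of 3 reads, and all 8 were a-only. Control population 1 replicate 1 also rests on 3 reads. Leaving out 1 library gave -2.11 to -1.62, with exact permutation p = 0.0571 in 5 of the 8 cases: without control population 1 replicate 1 or 2, control population 2 replicate 2, or tKO clone 2 replicate 1 or 2.

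The ends of the 3p reads also differed between genotypes. Among DM3 reads held by a hairpin that began at the annotated first base, 12.8%, 11.6%, 9.05% and 14.3% ended at the annotated last base in control libraries. In tKO libraries 26.9%, 26.9%, 26.9% and 23.8% did, all above the control libraries. The means were 26.1% and 11.9% (exact permutation p = 0.0286, adjusted 0.0408). Reads that stopped short of that base made up 65.3% in tKO and 83.7% in control libraries, also without overlap (exact permutation p = 0.0286). Reads that ran past it made up 8.54% and 4.35%, with overlap (exact permutation p = 0.2). With reads of any start within 3 bases counted, that last pair was 15.9% and 6.01% without overlap (exact permutation p = 0.0286). Ends and the b share are not independent, because the shared reads are the short ones.

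**Figure D3:**
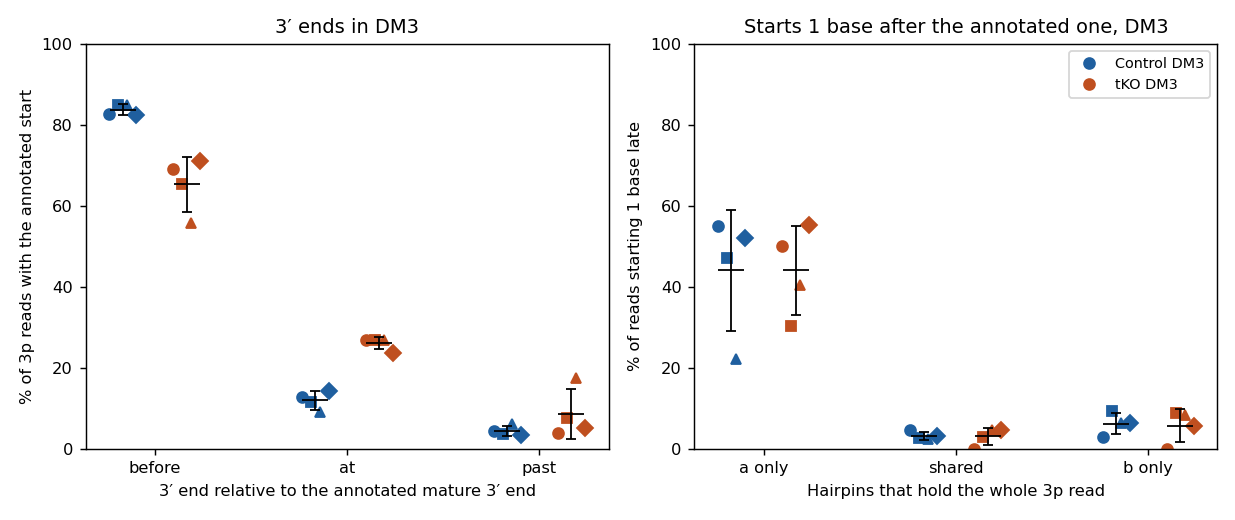
Left, percent of DM3 3p reads with the annotated start that end before, at or past the annotated last base, each point 1 library. Right, percent of reads that start 1 base late among a-only, shared and b-only reads of each DM3 library. A larger percentage of these reads ends at the annotated base in tKO libraries, and a-only reads start late more often than b-only reads in all 8 libraries.

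The start of a read sets its seed. Reads starting 1 base late were 6.51%, 5.51%, 3.35% and 5.32% of hairpin-held 3p reads in control DM3 and 13.3%, 8.09%, 17.9% and 10.8% in tKO DM3. All tKO libraries were higher, with means of 12.5% and 5.17% (exact permutation p = 0.0286, adjusted 0.0408; 0.0571 without any 1 control library). This share is not independent of the b share, since the classes differ in their starts. Within a class the genotypes overlapped: late starts were 55%, 47.2%, 22.2% and 52% of a-only reads in control and 50%, 30.4%, 40.5% and 55.4% in tKO libraries, and 2.94% to 9.30% against 0% to 8.89% of b-only reads. The late start was more frequent among a-only than among b-only reads of the same library. In the 8 DM3 libraries it was found in 44.1% ± 12.1 of a-only reads (SD, n = 8; range 22.2% to 55.4%) and in 5.98% ± 3.17 of b-only reads (range 0% to 9.30%). Shared reads started late in 0% to 4.68%, and being many they still made up 188 of the 509 late-start reads, beside 238 a-only and 83 b-only ones. The a-only share was the higher in 8 of 8 libraries (two-sided exact sign-flip permutation p = 0.00781, the smallest it can give). This test was not among the planned ones, and its libraries are replicates of 2 control populations and 2 tKO clones. Because a shared read with an added A has the letters of a b-only read, b-only reads may include shared ones. Their part in this gap was not tested. The 0% and the 22.2% come from libraries with fewer than 10 reads of a class, tKO clone 1 replicate 1 (8 a-only and 4 b-only) and control population 2 replicate 1 (9 a-only). In the 6 libraries with at least 10 reads of each class, the shares were 46.7% and 6.94%, higher among a-only reads in 6 of 6 (exact sign-flip permutation p = 0.0312, the smallest for 6). With tails allowed after a separating sequence, they were 46.3% and 14.3% over the 8 libraries. The seed UGGUCCC was thus carried by 238 of 506 a-only and 83 of 1253 b-only DM3 reads.

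Tails, bases past the listed sequence, were common on 3p reads. In total 4029 reads carried one, of which 1747 ended in a single added T, 888 in a single C and 672 in a single A. Of the tailed reads 252 (6.25%) were whole in the b hairpin once the tail was joined. Their letters match Mir133b, which does not tell a genome-encoded base from an added one. The 2 commonest added bases on 3p reads are shown, with the added base in capitals.
mature b with added U: uuugguccccuucaaccagcuaU
shared isoform 2 with added C: uuugguccccuucaaccagcC
The first had 903 reads, 27 in control GM, 0 in tKO GM, 723 in control DM3 and 153 in tKO DM3. The other had 669 reads. Tails were on 35.1% ± 2.96 of 3p reads in control DM3 and 30.7% ± 4.49 in tKO DM3 (SD, n = 4 each), with overlap (exact permutation p = 0.171). Among reads of the annotated miR-133b-3p, tailed or not, a single added U was on 51.0%, 45.6%, 58.4% and 42.6% in control DM3. It was on 21.2%, 35.1% and 31.1% in the 3 tKO DM3 libraries with at least 10 such reads, clone 1 replicate 1 being left out. These did not overlap (29.1% against 49.4%, exact permutation p = 0.0286, the smallest for 3 against 4; 0.0667 to 0.1 without any 1 of these libraries; this measure was chosen after the data were seen).

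The strands of the b hairpin were compared last. By listed names, miR-133b-5p made up 9.41%, 11.1%, 10.4% and 11.6% of b hairpin reads in control DM3 and 35.3%, 47.2%, 11.95% and 23.3% in tKO DM3. All tKO libraries were higher, with means of 29.4% and 10.6% (exact permutation p = 0.0286, adjusted 0.0408; 0.0571 without any 1 control library). tKO clone 2 replicate 1, at 11.95%, lay next to the highest control library. The 35.3% of tKO clone 1 replicate 1 rests on 4 reads of miR-133b-5p, all under 18 nt and 0 of them found in the hairpin. With listed sequences found in the hairpin only, the means were 22.7% and 9.17% (3 against 4 libraries, exact permutation p = 0.0571), and with whole reads 27.7% and 15.3% (exact permutation p = 0.0857). The direction was kept in each way of counting, and the groups were separated by listed names alone. The listed miR-133b-3p excludes shared reads, so these shares are of the reads listed as b, not of all strands the hairpin made.

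**Figure D4:**
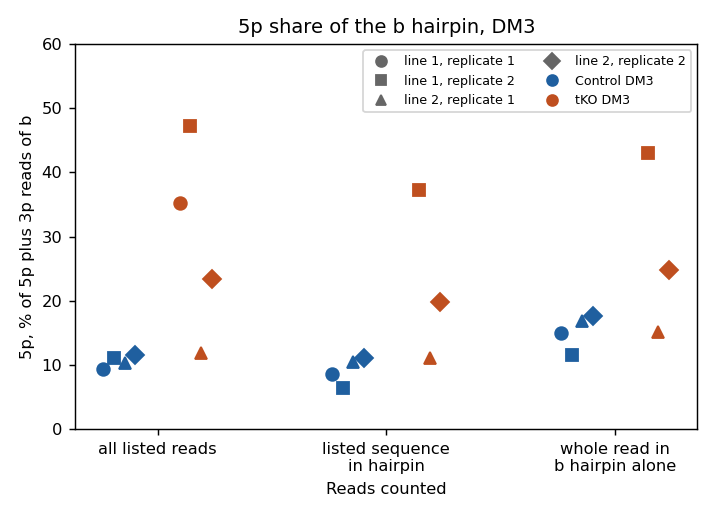
Share of the 5p strand among reads of the b hairpin in each DM3 library, in percent, counted in 3 ways, leaving out libraries with fewer than 10 reads. By listed names, control libraries lie at 9.41% to 11.6% and tKO libraries at 11.95% to 47.2%.

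Much of the listed miR-133b-5p outside DM3 was short. Reads under 18 nt made up 90.3% of it in control GM, 100% in tKO GM, 14.7% in control DM3 and 28.2% in tKO DM3. The annotated 22-base strand, printed above, was read 1, 0, 119 and 88 times in those groups. The miR-133b-5p levels in GM are thus levels of short reads, whose source was not tested. The 5p share fell from GM to DM3 in control cells by listed names, from 36.4% in 3 libraries to 10.6% (exact permutation p = 0.0286), but stood at 2.05% in GM and 9.17% in DM3 when only sequences found in the hairpin were counted (exact permutation p = 0.0667).

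A few longer reads came from outside the annotated strands of Mir133b. The commonest flank read follows the last base of miR-133b-3p, at chr1:20682856-20682884, and the commonest 5p read that runs on spans the 5p strand and the whole loop, at chr1:20682797-20682833, both on the plus strand. They are shown because the a hairpins do not hold them.
flank read: cagcagggcuggcaaagcucaauauuugg
5p and loop read: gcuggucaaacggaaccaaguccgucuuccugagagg
The flank read was counted 30 times and the other 12 times. In all, 3′ flank reads numbered 26 in control DM3 and 5 in tKO DM3, and 5p reads into the loop 24 and 7. In GM, flank reads were at 0 in both genotypes, and 5p reads into the loop at 1 in control and 0 in tKO libraries.

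**Figure D5:**
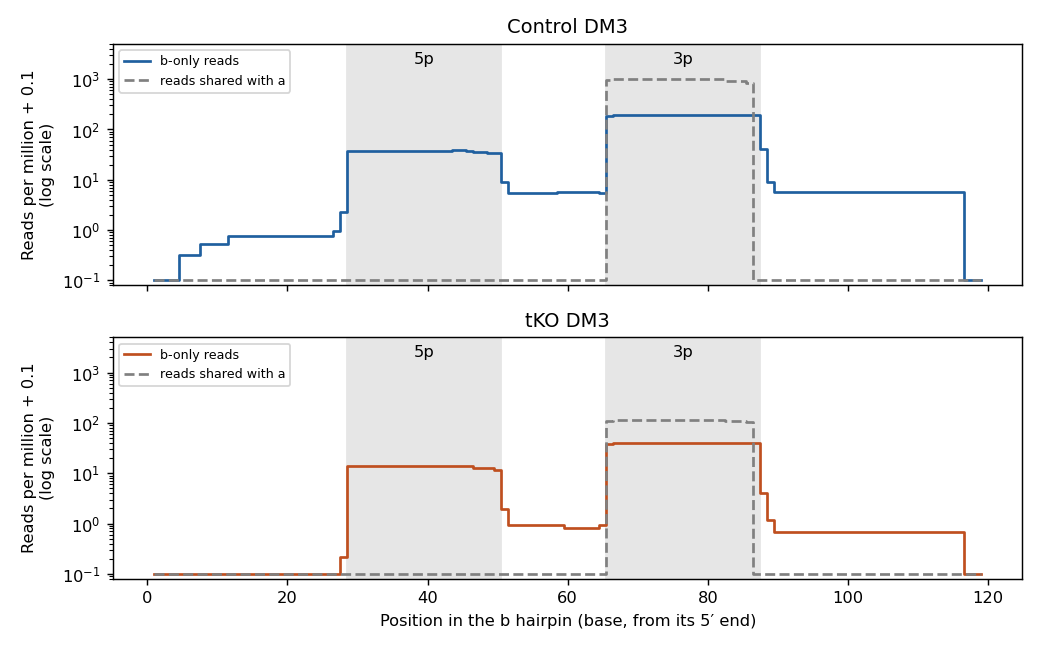
Coverage along the b hairpin in control DM3 and tKO DM3, with the libraries of each group pooled, so that deeper libraries weigh more. Values are CPM of the pooled reads plus 0.1, on a log axis against the position in the hairpin. The annotated 5p and 3p strands are shaded. Reads pile on the 3p strand, with a lower pile on the 5p strand and few reads in the loop and the 3′ flank.

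Other muscle miRNAs set the members in context. Of 12 muscle names besides miR-133, 5 were tested. In DM3, 2 of the 5 fell in tKO cells, miR-206-3p (edgeR log2 -11.85) and miR-1a-3p (-4.60), which are products of the deleted hairpins, beside 0.867% of all names called. In GM 1 was called lower, miR-206-3p. In control cells the same pair rose from GM to DM3 (edgeR log2 4.57 and 3.92), beside 27.6% of all names called, and in tKO cells 0 of the 5 were called, with 1 at an unadjusted p under 0.05, beside 19.7%. miR-486a-5p, miR-486b-5p and miR-499-5p, made from other muscle genes, were called in none of these comparisons by edgeR. Of 17 miRNAs linked to myoblast differentiation or proliferation, edgeR called 7 of 17 in control cells, 2 higher and 5 lower in DM3, and 6 of 17 in tKO cells, 3 in each direction. The shares called over all names were 27.6% and 19.7%. miR-675-3p, made from the H19 transcript, rose by 5.25 in control and 5.43 in tKO cells on the log2 scale, while the other arm of its hairpin, miR-675-5p, was at -0.082 and -1.20 and was not called. miR-222-3p, of a proliferation-linked pair, fell by 2.09 and 1.75. Their medians were -0.41 and 0.09, beside 0.02 and 0.01 over all 807 names. Between genotypes edgeR called 0 of the 17 in GM and in DM3, with 0 and 2 at an unadjusted p under 0.05, beside 65 and 90 of all 807 names.

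The names whose levels over the 16 libraries were most like the summed 3p level were miR-6364-3p (Pearson r 0.918), miR-6921-3p (0.917), miR-6917-3p (0.913), miR-483-3p (0.904) and miR-6974-3p (0.903), of 633 names compared. GM and DM3 libraries form separate sets, so this likeness mostly restates a rise with differentiation. Within the 8 DM3 libraries r was 0.459 to 0.695 for these 5 names, and within the 8 GM libraries -0.302 to 0.132.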

How the data were processed

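Small RNA reads of 16 libraries were deposited by the authors as tables listing, for each miRNA name, the sequences found, any 3′ tail and the reads, with reads that matched several names divided, so the deposited values are estimated counts. Per the submitters' processing notes, cutadapt 1.15, STAR 2.5.4 and mm10 were used. The share of rows with a fractional count was 0.625%. Names were joined to a listed mature name by dropping a hairpin copy number or arm ending, or by adding the letter a. Reads were rounded for count tests.

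Counts were tested with edgeR 4.0.16 (R 4.3.3; TMM, robust quasi-likelihood, names with at least 10 reads by filterByExpr, Benjamini-Hochberg over 807 names), with 1 shared spread for all 16 libraries. DESeq2 1.42.0 was an alternative. Levels used log2(CPM + 1), with CPM over all listed reads, and two-sided exact permutation tests. Wilson intervals (95%) and zero limits of 3 reads cover counting error only, since reads carry no molecular identifiers. Shares tested between groups need at least 10 reads in a library; the late-start comparison within libraries was also run with that minimum. Hairpins came from GENCODE vM21, on the same GRCm38 build as mm10. The fit was tested on simulated data. Pairing was checked because the labels repeat replicate numbers across groups. The names given values were the members, miR-133a-5p, the deleted miRNAs, listed muscle, differentiation and other-cell miRNAs, and the 5 names most like the members. Members and lists were chosen with earlier results of these data known.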

Additional observations from a re-analysis of the deposited data

Results flagged for a closer look

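In tKO DM3, the share of 3p reads ending at the annotated base had 1 library apart from the other 3: clone 2 replicate 2 was at 23.8%, the others at 26.9% each. The gap was 0.982 of the group's range, past Dixon's 95% limit for 4 libraries. This was 1 flag among 32 groups of 4 libraries tested, and chance alone flags about 1 in 20. The library still lay above every control DM3 library, the highest of which was at 14.3%.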

How the results depend on the processing

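Of 1026 recomputed values over 68 results, 821 kept their direction and side of the threshold; 115 lost significance, 32 gained it, 31 reversed and 27 counts moved past 1.5 times. The cause was not tested. The edgeR summed 3p difference in DM3 passed 0.05 at -2.08 with no filter, -2.15 with DESeq2, -3.07 with replicate 2 alone, -2.39 with sequences found in a hairpin, -2.26 with 18 to 25 nt, -2.29 with both, and -2.84 with the replicates of a line summed. It did not pass in the other 7 of 14 alternatives, among them -2.11 with only the compared groups (edgeR adjusted p = 0.381). Without 1 library at a time it ran from -2.98 to -1.83 (adjusted p 0.00718 to 0.244).

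Names called in GM between genotypes numbered 15 with no filter, 20 with DESeq2, 2 with replicate 1 alone, 16 with 18 to 25 nt and 14 when those had also to be in a hairpin, and 5 to 14 without 1 library (5 without control population 2 replicate 1 or tKO clone 2 replicate 2, 14 without tKO clone 1 replicate 1). In DM3 they were, in turn, 14, 19, 1, 15 and 23, with 70 in replicate 2 alone, 4 with only the compared groups, 18 with sequences in a hairpin and 74 with lines summed (5 to 53 without 1 library; 53 without tKO DM3 clone 1 replicate 1). The rise with differentiation called 85 names in control cells with replicate 1 alone, 139 with 18 to 25 nt and 131 with those in a hairpin, and in tKO cells 82 with only the compared groups and 74 with replicate 2 alone. The interaction called 1 name with 18 to 25 nt, with those in a hairpin, and with lines summed (0 to 1 without 1 library; 1 without tKO DM3 clone 1 replicate 1).

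The edgeR rise of miR-133b-5p ran from 2.87 to 8.48 in control and from 2.90 to 8.20 in tKO cells, highest with 18 to 25 nt. miR-133b-3p in GM ran from -5.94 to -1.40, passing 0.05 with 18 to 25 nt, in a hairpin, and with both.

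Reversed values, none past 0.05 in edgeR, were these. miR-133a-3p was at 0.032 in GM with replicate 1 alone, and with hairpin copies kept apart at 1.55 in GM and 1.70 in DM3. Its interaction was 0.14 with sequences in a hairpin, 0.15 with copies apart and 0.027 with 18 to 25 nt in a hairpin. The interaction of miR-133b-3p was 0.051 with no filter, 3.30 in a hairpin, 3.45 with 18 to 25 nt and 3.26 with both, and -0.87 to 0.41 without 1 library. In a hairpin tKO GM held 0 reads of miR-133b-3p, so the size of those interaction values is set by the fit and is no bound. That of miR-133b-5p was 0.031 with replicate 1 alone and 0.92 in a hairpin, and that of the sum 0.32, 0.34 and 0.38 in a hairpin, with 18 to 25 nt and with both. Without 1 library, miR-133b-5p in GM ran from -0.82 to 0.041 in edgeR, and its level from -0.69 to 0.041; over the other alternatives edgeR gave -2.45, with sequences in a hairpin, to -0.096. a-only reads ran from -0.77 to 0.83 in DM3 and from -0.081 to 0.70 in GM without 1 library.

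Without 1 library, the level difference of the 3p sum ran from -3.17 to -2.04 in DM3 and -1.38 to -0.80 in GM, and the control rise from 7.16 to 7.75. The b share ran from -37.9 to -26.8 points, the annotated start from -8.60 to -5.78, the late start from 5.58 to 8.85, and the 5p share from 12.9 to 24.7 in DM3 and -33.7 to -16.8 for DM3 against GM in control. Without any 1 control DM3 library, exact permutation p was 0.0857 for the b share and 0.0571 for the starts and the 5p share, and the adjusted value 0.0703 for the 3p sum; ends at and short of the annotated base kept p = 0.0286. The 5p share was 13.5 points with sequences in the hairpin and 12.4 with whole reads; for DM3 against GM it turned to 7.12. Ends past the annotated base reached 9.90 points with any start.

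The replicate numbers were not taken as pairs, because not every same-numbered pair deviated together. Over 551 names, same-numbered libraries had mean r 0.112 (18 of 32 pairs over 0.1) and others -0.105 (9 of 32). By comparison, those means ran from 0.211 against -0.203 (tKO against control in GM) to 0.0077 against 0.0134 (DM3 against GM in tKO). This check does not settle whether same-numbered libraries shared more than the number. Lines were not blocked in any test, so GM and DM3 libraries with the same line label were compared as unpaired. With the replicate block, the edgeR sum was -1.65 in GM, -2.23 in DM3 (adjusted p 0.0624), 6.88 and 6.30 for the rises and -0.58 for the interaction, with 10, 7, 241, 168 and 0 names called. Permutation in the block cannot go below 0.0556, so p rose above 0.05 for the unchanged differences of -2.65, 7.45 and 5.90 (sum; adjusted p 0.0741), -32.3 (b share), -7.47 and 7.36 (starts), 14.2 and -18.4 (ends) and 18.8 points (5p share). The same held in DM3 for shared reads (-3.05), b-only reads (-2.20) and the single members (-2.63, -2.70 and -1.02; adjusted p 0.0741), and in GM for reads whole in a hairpin (-1.84) and shared reads (-2.31). In all, 31 of 65 results lost the threshold with the block, and 34 kept their side of it.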
